A study of Homo sapiens with 3 samples.

Results

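Polycomb repressive complex 2 (PRC2) trimethylates lysine 27 of histone H3, a mark of silenced developmental genes, and its occupancy is concentrated on CpG-rich promoters. The 10 genes examined here encode the complex itself: the methyltransferases EZH1 and EZH2, the core subunits EED and SUZ12, the histone-binding proteins RBBP4 and RBBP7, and the accessory proteins JARID2, PHF1, MTF2 and PHF19, which help to bring the complex to chromatin. The members were chosen by their known membership of the complex, 10 of the 20162 protein-coding genes annotated on the main chromosomes. To see whether the loci that encode PRC2 are themselves occupied by EZH2, or by PHF13, a PHD-finger protein that reads methylated lysine 4 of histone H3, chromatin immunoprecipitation peaks of both proteins were located around these genes.

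The data came from wild-type PANC-1 cells, an established human pancreatic ductal carcinoma line, with no treatment listed. The 3 libraries were 1 precipitated with an antibody against PHF13, made to order and polyclonal, 1 with an antibody against EZH2, and 1 of input chromatin, which was the control in peak calling. All were crosslinked with EGS and formaldehyde. The PHF13 list held 19039 peaks and the EZH2 list 21639. With 1 library per antibody there was no spread between replicates, so the comparisons below describe these libraries and carry no test. Total read numbers were not given in the lists, and the depth behind each peak is therefore stated as the number of fragments stacked at its summit, recovered from the deposited fold enrichment and p-value. That number had a median of 21 for PHF13 and 25 for EZH2.

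Within 5 kb of an annotated transcription start site (TSS), PHF13 peaks were found at 5 of the 10 PRC2 genes and at 21.0% of all protein-coding genes, and EZH2 peaks at 2 of the 10 and at 23.6%. A PHF13 peak lay that close to a TSS of EED, RBBP4, JARID2, PHF1 and MTF2, and an EZH2 peak to one of EED and JARID2. Adding the gene bodies brought in no further gene in either list. EZH1, EZH2, SUZ12, RBBP7 and PHF19 had a peak of neither list at a TSS or inside the gene. Of all protein-coding genes, 31.2% had a PHF13 peak there, 30.0% an EZH2 peak and 12.6% both, so having neither was common. The EZH2 antibody gave no peak at the EZH2 gene itself or at its paralog EZH1, as at most protein-coding genes.

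**Figure D1:**
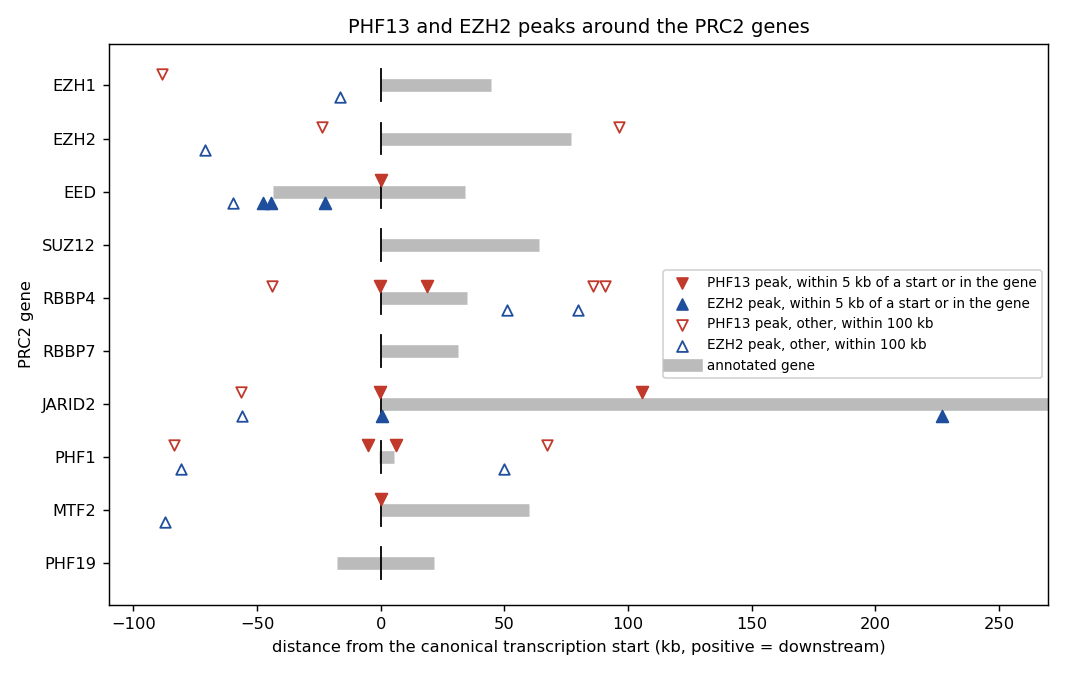
Positions of peak summits around the 10 PRC2 genes. The horizontal axis gives the distance in kb from the TSS of the canonical transcript (black tick), in the direction of transcription; each row is 1 gene, grey bars are annotated genes, downward red triangles PHF13 peaks and upward blue triangles EZH2 peaks, filled where within 5 kb of a TSS or in the gene. Filled red symbols sit at the start of EED, RBBP4, JARID2 and MTF2 and on either side of PHF1, and a filled blue symbol sits at a canonical start only at JARID2.

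These counts were read against all protein-coding genes. For PHF13, 21.0% of protein-coding genes had a peak within 5 kb of any TSS and 31.2% had one at a TSS or in the gene body, compared with 5 of 10 PRC2 genes under either definition (50%, 95% Wilson interval 23.7 to 76.3, which covers counting error only). For EZH2, the shares of all protein-coding genes were 23.6% and 30.0%, and that of the PRC2 genes was 2 of 10 (20%, interval 5.67 to 51). Both lists were present near a TSS of 2 PRC2 genes, EED and JARID2, while 5.33% of protein-coding genes had both near a TSS and 12.6% had both at a TSS or in the body. If only the canonical transcript of each gene was counted, 4 PRC2 genes kept a PHF13 peak within 5 kb (14.7% of all protein-coding genes), and JARID2 alone kept an EZH2 peak (19.0%). The median span was 52.3 kb for the PRC2 genes and 27.2 kb for all protein-coding genes. Near any TSS, PHF13 peaks were at 15.9% of genes under 25 kb and 30.1% of genes of 100 kb or more. For EZH2 these shares were 18.0% and 38.9%. What part gene length had in the counts was not tested.

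All 10 genes have CpG-rich promoters. Over 500 bp on each side of the canonical TSS, the observed/expected CpG ratio had a median of 0.893 among the PRC2 genes and 0.723 among all protein-coding genes, and it ran from 0.646 at PHF1 to 1.01 at the EZH2 gene. Among the 13268 protein-coding genes with a ratio of at least 0.6, a PHF13 peak was near a TSS of 24.9% and an EZH2 peak near a TSS of 25.0%. The share with a PHF13 peak was higher at higher CpG ratios, from 11.6% of genes below 0.3 to 27.6% between 0.8 and 1.0, the class that holds EED, SUZ12, RBBP4, RBBP7, JARID2 and PHF19. The share with an EZH2 peak was 17.7% below 0.3 and between 24.6% and 25.5% in the classes above.

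**Figure D2:**
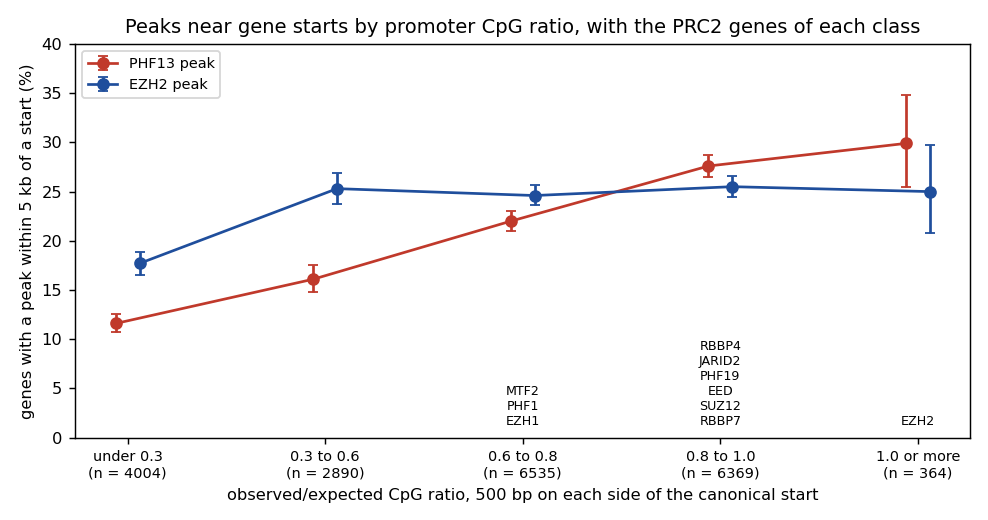
Share of protein-coding genes with a peak within 5 kb of a TSS (vertical axis, percent) in 5 classes of promoter CpG ratio (horizontal axis), for PHF13 in red and EZH2 in blue, with 95% Wilson intervals as bars and the PRC2 genes of each class named. The red points climb from 11.6% to 29.9%, the blue points stay between 24.6% and 25.5% above the first 2 classes, and every PRC2 gene is in one of the upper 3 classes.

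JARID2 was the only PRC2 gene with peaks of both lists at its canonical start. JARID2 is an accessory subunit that binds nucleosomes and stimulates the methyltransferase. The gene (ENSG00000008083, GRCh37, chr6:15246300-15522273, plus strand) spans 276 kb. The PHF13 peak at chr6:15245968-15246111 lay upstream of the gene, in intergenic sequence, with its summit 240 bp before the TSS. Its fold enrichment was 3.78, its −log10 q was 5.11, and 24 fragments (95% Poisson interval 15.4 to 35.7) were stacked over a local background of 5.62. The EZH2 peak at chr6:15246687-15247040 lay downstream of the start, with its summit in the first intron 626 bp after the TSS. It had the highest enrichment of the EZH2 peaks at PRC2 genes, 4.36-fold at a −log10 q of 7.26, with 25 fragments (16.2 to 36.9) over a background of 4.96.

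The whole PHF13 peak is printed as the CpG-rich sequence just before the start (plus-strand GRCh37, 5′ to 3′, with CpG dinucleotides in capitals).
JARID2 PHF13 peak: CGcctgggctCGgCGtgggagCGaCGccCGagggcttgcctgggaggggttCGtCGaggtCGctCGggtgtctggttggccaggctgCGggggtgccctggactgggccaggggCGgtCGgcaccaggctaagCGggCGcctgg
The PHF13 peak held 15 CpGs in 144 bp and had a GC content of 75.7%. The sequences under the 2 peaks were unlike: over 500 bp at the summit the CpG ratio was 0.788 for the PHF13 peak and 0.402 for the EZH2 peak, and the GC content was 67.7% and 40.1%. The peaks were on either side of the start without touching: 576 bp separated them, and the summits were 866 bp apart. For comparison, the median distance between the closest PHF13 and EZH2 peaks was 3342 bp at the 1075 protein-coding genes with both near a TSS.

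JARID2 also had a peak of each list deep inside the gene, at different places. The PHF13 peak at chr6:15352074-15352221 was intronic, 105818 bp after the canonical TSS, enriched 3.44-fold (−log10 q 2.95) from 17 fragments over the genome-wide background of 4.23. An AP-1 site (TGACTCA on either strand) lay in the 200 bp centred on its summit, though the sequence of the peak itself did not contain it. The intronic EZH2 peak at chr6:15472996-15473148 was 226791 bp after the canonical TSS and 28441 bp from the closest annotated start, enriched 3.87-fold (−log10 q 4.83) from 20 fragments. Of the 10 genes JARID2 is by far the longest. Among protein-coding genes of 100 kb or more, the share with a peak at a TSS or in the body was 61.8% for PHF13 and 56.4% for EZH2, so peaks somewhere in such a gene were common.

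EED, the subunit that binds trimethylated lysine 27 and stimulates the enzyme, had the PHF13 peak with the highest −log10 q of the set. The gene (ENSG00000074266, chr11:85912254-85989855, plus strand) has 12 annotated starts, and its canonical TSS is at 85955795. The PHF13 peak at chr11:85955628-85955853 covered that TSS, with the summit 102 bp upstream, in a non-coding exon of the gene ENSG00000288809. The fold enrichment was 3.67, the −log10 q was 5.77, and 28 fragments (18.6 to 40.5) were found over a background of 6.9. It had a higher −log10 q than 75.6% of all PHF13 peaks. The part of the peak before the canonical TSS (chr11:85955628-85955794, plus strand, CpG in capitals) is shown because it holds the summit at the start of the gene, at position 66 of the run.
EED PHF13 peak, upstream part: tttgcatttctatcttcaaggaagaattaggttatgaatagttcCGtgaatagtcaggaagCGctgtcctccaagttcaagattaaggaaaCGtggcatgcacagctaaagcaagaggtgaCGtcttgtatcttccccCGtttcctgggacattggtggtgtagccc
This stretch held 5 CpGs in 167 bp, and the 500 bp around the summit had a CpG ratio of 0.802.

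The EZH2 peaks assigned to EED were elsewhere. They lay at chr11:85911278-85911429 and chr11:85908022-85908251, 825 and 4003 bp from the start of 1 long EED transcript that begins at 85912254, and at chr11:85933248-85933401 in the intron of that transcript. Their summits were 44443, 47642 and 22520 bp upstream of the canonical TSS. The fold enrichments were 2.98, 2.74 and 2.92, with −log10 q of 3.86, 2.91 and 3.54. Each summit held 24 to 26 fragments over a background of 7.9 to 8.13. The sequence was CpG-poor, with a CpG ratio between 0.0663 and 0.211 at the summits. Hence the PHF13 and EZH2 peaks counted together at EED were 44199 bp apart at their closest, taking the peaks within 5 kb of a TSS.

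MTF2, a Polycomb-like protein that binds unmethylated CpG DNA and recruits PRC2, had 1 PHF13 peak and no EZH2 peak. The gene (ENSG00000143033, chr1:93544792-93604636, plus strand) was preceded by the peak at chr1:93544563-93544755, which ended 37 bp before the closest TSS, in intergenic sequence. Of the PHF13 peaks at PRC2 genes it had the lowest enrichment and −log10 q. Only 14 fragments (7.65 to 23.5) were stacked at the summit, over the genome-wide background of 4.23. The enrichment was 2.87-fold at a −log10 q of 1.7, and 3% of the PHF13 list had a lower −log10 q. The whole peak is shown, plus strand and with CpG in capitals, as the CpG-rich sequence directly in front of the gene.
MTF2 PHF13 peak: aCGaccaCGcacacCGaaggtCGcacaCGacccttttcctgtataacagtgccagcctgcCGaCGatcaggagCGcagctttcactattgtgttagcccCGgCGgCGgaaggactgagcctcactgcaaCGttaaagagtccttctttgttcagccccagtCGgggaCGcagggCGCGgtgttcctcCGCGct
It held 18 CpGs in 193 bp, a CpG ratio of 1.04. The closest EZH2 peak was 87223 bp away.

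RBBP4, a histone chaperone that PRC2 shares with other chromatin complexes, had 2 PHF13 peaks, and neither was a plain peak at its own start. The gene (ENSG00000162521, chr1:33116743-33151812, plus strand) lies head to head with ZBTB8OS. The peak at chr1:33116338-33116509 covered the start of ZBTB8OS, in untranslated exonic sequence, and was 234 bp from the closest RBBP4 TSS. The enrichment there was 3.04-fold (−log10 q 2.32), from 17 fragments (9.9 to 27.2) over a background of 4.92. The other peak, at chr1:33135261-33135454, was intronic, 404 bp from an internal start and 18542 bp after the canonical TSS, enriched 3.8-fold (−log10 q 4.24) from 20 fragments. The sequence beneath it is repeated in the genome: none of the 77 24-mers in 100 bp at the summit was single-copy, and the median 24-mer occurred 764 times. At the other 12 peaks of the PRC2 genes the median 24-mer occurred once. Reads that are repeated over their whole length cannot be placed at 1 copy with certainty. Copies were counted over 24 bp only, so whether whole reads were repeated is not known. What part this had in the intronic RBBP4 peak was not tested. The closest EZH2 peak of RBBP4 was 32758 bp away, in an intron of SYNC.

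At PHF1, a Polycomb-like protein whose Tudor domain reads methylated lysine 36 of histone H3, both PHF13 peaks belonged by position to its neighbours. The gene (ENSG00000112511, chr6:33378176-33384230, plus strand) is 6.05 kb long. One peak, at chr6:33373211-33373642, had its summit in an intron of KIFC1, and 198 of its 432 bp were coding exon. It lay 356 bp from a KIFC1 TSS and 4534 bp from the closest PHF1 TSS. It was enriched 3.55-fold (−log10 q 3.73) from 20 fragments. The other, at chr6:33384965-33385137, had its summit in a coding exon of CUTA, 183 bp from a CUTA TSS and 1947 bp from the closest start of PHF1, which is internal to the gene. Its fold enrichment was 3.65, its −log10 q 5.03 and its fragment number 25, and an AP-1 site lay at the summit. No PHF13 peak was within 5 kb of the canonical PHF1 TSS. The closest EZH2 peak was 45334 bp from a start, in repeated sequence whose median 24-mer occurred 417 times.

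Across the set, 5 of the 8 PHF13 peaks had a TSS of the PRC2 gene as their closest protein-coding start, and the other 3 were closer to ZBTB8OS, KIFC1 or CUTA. All 5 EZH2 peaks had EED or JARID2 as the closest. No PHF13 peak overlapped an EZH2 peak. Taking 3 counts as a rough limit that a count of 0 allows, the share could be up to 37.5% of the 8 PHF13 peaks and up to 60% of the 5 EZH2 peaks. This limit is coarse for so few peaks and treats them as independent, although several lay at the same gene. Of all peaks assigned to protein-coding genes in the same way, 5.34% of PHF13 peaks and 4.64% of EZH2 peaks overlapped a peak of the other list. The AP-1 site was present at 2 of the 8 PHF13 summits and at none of the 5 EZH2 summits, compared with 11.2% and 2.31% of all peaks of each list.

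**Figure D3:**
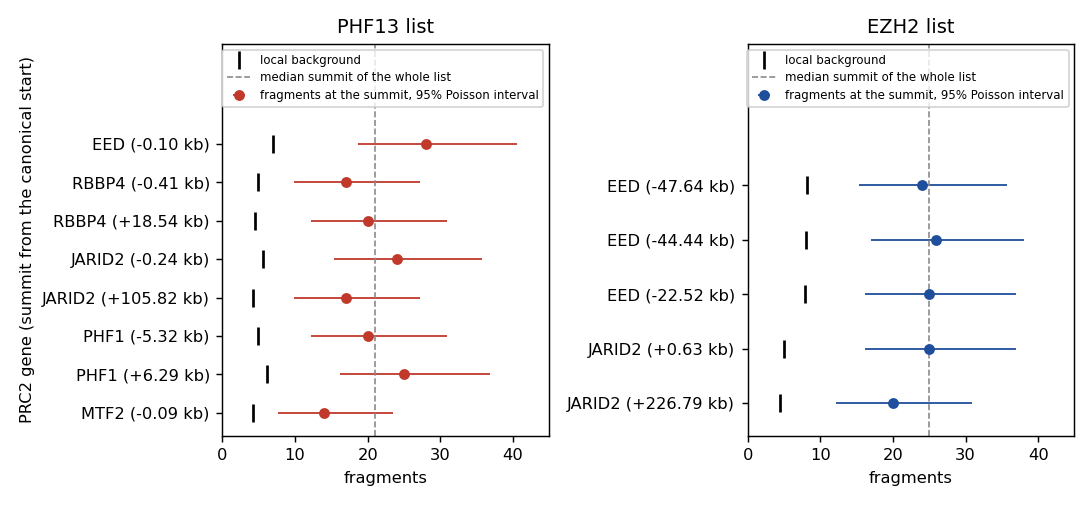
Fragments at the summit of each peak assigned to a PRC2 gene (points, horizontal axis), with 95% Poisson intervals as bars and the local background as black ticks; rows give the gene and the distance of the summit from its canonical TSS, and the dashed line is the median summit of the whole list. PHF13 summits held 14 to 28 fragments and EZH2 summits 20 to 26; the intervals cover counting error only, and each summit exceeds its background because peaks were called on that excess.

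The peaks at PRC2 genes were of ordinary strength for their lists. For PHF13 the median enrichment was 3.6-fold and the median −log10 q 3.99, and the whole list had 3.41 and 3.57. For EZH2 the medians were 2.98 and 3.86 at the PRC2 genes and 3.13 and 3.99 in the list. The summits held 14 to 28 fragments for PHF13 and 20 to 26 for EZH2. All the EZH2 peaks were narrow, from 152 to 354 bp. None was a domain wider than 1 kb, the form in which 7.04% of protein-coding genes carried EZH2 within 5 kb of a TSS. Most peaks of the EZH2 list were likewise narrow: the median width was 216 bp, and 1659 of 21639 were wider than 1 kb. Since a summit at the genome-wide background entered the lists with 13 fragments at the fewest, lower occupancy was not detectable at this depth. With a −log10 q limit of 5, 3 of the PHF13 peaks would be kept, those over the EED start, before the JARID2 start and in CUTA, together with 1 EZH2 peak, the one at the JARID2 start.

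The genes without a peak differed in how far away the closest peak was. At the EZH2 gene (ENSG00000106462, chr7:148504349-148581413, minus strand), the closest PHF13 peak was 23734 bp from a TSS, in intergenic repeated sequence whose median 24-mer occurred 571 times. The closest EZH2 peak there was 70885 bp away, enriched 3.51-fold from 18 fragments. EZH1 (ENSG00000108799, chr17:40852293-40897067, minus strand) had an EZH2 peak 15441 bp from its start. This was a wide peak of 1282 bp, enriched 4.94-fold (−log10 q 17.5) from 52 fragments, and it covered a TSS of RAMP2, a receptor-modifying protein. The closest PHF13 peak to EZH1 was 88251 bp away and covered a start of BECN1.

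SUZ12 (ENSG00000178691, chr17:30264026-30328057, plus strand), without which the complex is unstable, had a PHF13 peak 54943 bp from a TSS, in LRRC37B, over sequence with a median of 2 copies. Its closest EZH2 peak was 271117 bp away. That peak was a wide one of 1891 bp at RHBDL3, with a −log10 q of 53.5. RBBP7 (ENSG00000102054, chrX:16857406-16888485, minus strand) is the paralog of RBBP4. Its closest PHF13 peak was 473766 bp from a TSS, in repeated sequence whose median 24-mer occurred 7695 times. Its closest EZH2 peak was 505591 bp away, so RBBP7 had no peak of either list within 100 kb. PHF19 (ENSG00000119403, chr9:123617929-123657174, minus strand), the third Polycomb-like protein, also had none within 100 kb, the closest PHF13 and EZH2 peaks being 129648 and 146303 bp away. In all, 2 of the 10 genes had no PHF13 peak and 3 had no EZH2 peak within 100 kb of a TSS, while 26.4% and 24.8% of protein-coding genes had none.

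Other Polycomb and Trithorax genes were counted in the same way. Among 5 further PRC2 partners, LCOR and LCORL had a PHF13 peak near a TSS and only LCORL had EZH2 peaks. The stronger of these was 516 bp wide (−log10 q 14.5), and the closest was 536 bp from a start. AEBP2, EPOP and EZHIP had neither. Of 22 subunits of Polycomb repressive complex 1 (PRC1), the complex that ubiquitinates histone H2A, PHF13 peaks were near 8 and EZH2 peaks near 7, and CBX8, BMI1 and PHC2 were among the genes with both. The highest −log10 q was at BMI1, a PRC1 RING-finger subunit, where an EZH2 peak of 1458 bp covered an annotated TSS at 9.14-fold enrichment (−log10 q 117), from 203 fragments. Wide EZH2 peaks were also found near a start of PCGF5 (1521 bp) and KDM2B (1172 bp), so that 3 of 22 PRC1 genes and 0 of 10 PRC2 genes had one, beside 7.04% of all protein-coding genes. The count of wide peaks was chosen after the values were seen, and the difference was not tested.

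**Figure D4:**
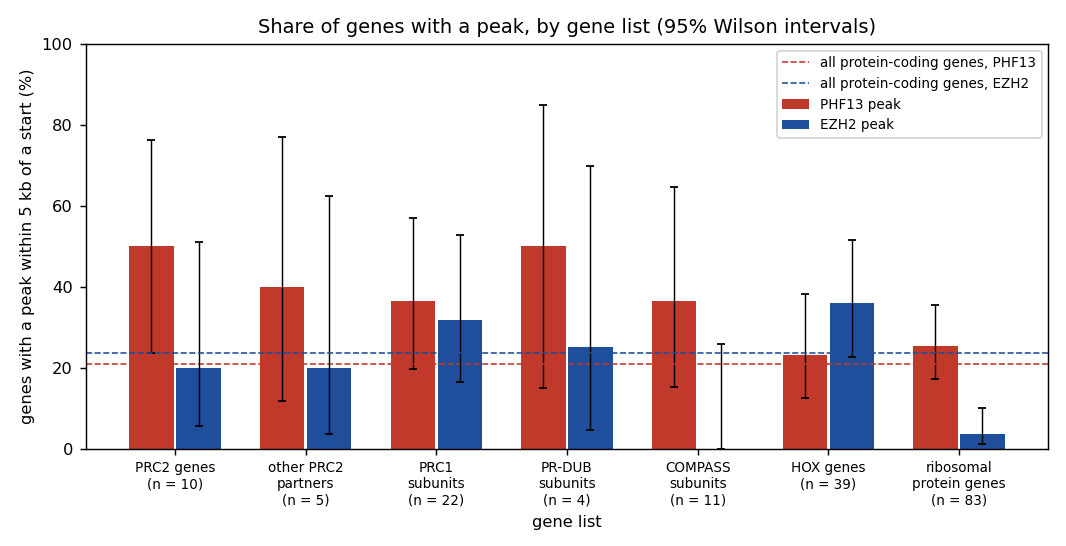
Share of genes with a peak within 5 kb of a TSS (vertical axis, percent) in 7 gene lists, for PHF13 in red and EZH2 in blue, with 95% Wilson intervals as error bars; dashed lines are the shares of all protein-coding genes, 21.0% for PHF13 and 23.6% for EZH2. The PRC2 genes stood at 50% and 20%, the other PRC2 partners at 40.0% and 20.0%, and the PRC1 genes at 36.4% and 31.8%. The PR-DUB genes stood at 50.0% and 25.0%, and the COMPASS genes at 36.4% and 0. The HOX genes stood at 23.1% and 35.9%, and the ribosomal protein genes at 25.3% and 3.61%.

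Of 11 subunits of COMPASS, the complexes that methylate lysine 4 of histone H3, 4 had a PHF13 peak and none had an EZH2 peak near a TSS (interval 0 to 25.9%). The highest −log10 q for PHF13 there, 19.2, belonged to a peak of 512 bp within 5 kb of a TSS of KMT2A, a lysine 4 methyltransferase. Of 4 subunits of the H2A deubiquitinase PR-DUB, BAP1 and ASXL1 had a PHF13 peak, and ASXL3 had an EZH2 peak of 1765 bp over a start. The demethylase genes of lysine 27 gave 1 EZH2 peak, 3715 bp from a start of KDM6B, and no PHF13 peak. Near a TSS, PHF13 peaks numbered 2 at PHF23, the paralog of PHF13, and 0 at PHF13 itself. For reference, PHF13 peaks were near 9 of 39 HOX genes and EZH2 peaks near 14, with both at HOXD3 and HOXD8, which shared 1 PHF13 peak of 158 bp. Of 83 ribosomal protein genes, PHF13 peaks were near 21 and EZH2 peaks near 3, with both at RPS16.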

How the data were processed

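ChIP-seq peak lists of 2 antibodies (PHF13 and EZH2), 1 library each, were analysed; peaks were called against the input library, whose own coverage was not analysed here. Per the methods and the labels, the authors trimmed reads with Trim Galore 0.4.1, aligned them to hg19 with Bowtie2 2.4.1, discarded duplicate pairs by Picard, and ran MACS2 2.2.7.1. The deposited values are the fold enrichment at the summit (a ratio of ChIP pileup to local background), the p-value and q-value on the −log10 scale, and a score made from the q-value. The deposited lists reach down to a −log10 q of 1.3, although the methods state a stricter limit for PHF13 and broad peaks for EZH2, so they were used as deposited. Some items withheld for evaluation are not reported here.

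Positions are 1-based on GRCh37 and were compared with GENCODE release 44 mapped to it; no peak ran past a chromosome end. Each annotated transcript gave a TSS at its 5′ end, and the one tagged as canonical gave the canonical TSS. A peak was assigned to a gene within 5 kb of a TSS or inside the gene, and distances run from the peak's edge unless a summit is named. Fragments and background were solved from fold enrichment and p, within a relative tolerance of 0.0001 for every peak; the solver and distance code were tested on simulated data. GC content and CpG ratio at summits were taken over 500 bp, and 24-mers of both strands were counted in the genome. Intervals are Wilson for shares and exact Poisson for fragments, at 95%, and cover counting error only. The members, the gene lists and the rule for naming them were chosen with earlier results of these data known: all 10 members with each assigned peak and the closest peaks, and, from the other lists, genes with both peaks, or the gene with the highest −log10 q; other genes of those lists were named after their values were seen. Alternatives were a −log10 q of at least 3 or 5, TSS distances of 1 and 10 kb, other TSS definitions, summits in place of peaks, all annotated genes and other overlap rules. Python 3.11.15, NumPy 2.4.6, SciPy 1.17.1, pysam 0.24.0 and statsmodels 0.14.6 were used.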

Additional observations from a re-analysis of the deposited data

How the results depend on the processing

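Of 81 values recomputed under alternatives, 63 stayed within 1.5 times the value reported. Among these, the count of 0 overlapping pairs could only stay 0 under a stricter q limit or a stricter overlap rule. The q limit mattered most. At a −log10 q of at least 5, a PHF13 peak near a TSS, or at a TSS or in the body, was left at 3 members, an EZH2 peak at 1 and both at 1, with 3 PHF13 peaks and 1 EZH2 peak in all; the shares of protein-coding genes near a TSS fell to 6.62% for PHF13 and 14.3% for EZH2. At a −log10 q of at least 3, 5 PHF13 peaks were left. With 1 TSS per gene, 1 member had both peaks near it. With the canonical TSS, chosen as an alternative after seeing the data, 1 member had an EZH2 peak and 1 had both. Within 1 kb of a TSS, the share of protein-coding genes with a PHF13 peak was 13.6%. Among all annotated genes, the shares were 13.6% (PHF13) and 15.5% (EZH2). Counting summits within 1 kb as a pair gave 1 pair, at JARID2, in place of 0 overlaps. With 1 library per antibody no replicate could be left out. No paired analysis was possible because each antibody has 1 library. Depth limits the weakest peaks: the MTF2 peak rests on 14 fragments.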
